A study of Mus musculus with 12 samples.

Results

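The genes described here are the 10 members of the MHC class I presentation and immunoproteasome set, picked by gene name from the deposited table. They are the heavy chains H2-K1 and H2-D1, the light chain B2m, the peptide transporter and its bridge (Tap1, Tap2, Tapbp), the immunoproteasome subunits Psmb8, Psmb9 and Psmb10, and the transcriptional activator Nlrc5. All 10 names were found once each among 54532 listed genes. In mm10, 7 of them lie in the MHC region of chromosome 17, among them H2-K1 (chr17:33996017-34000333, minus strand), H2-D1 (chr17:35262730-35267499, plus strand) and the run of Psmb9, Tap1, Psmb8 and Tap2 between chr17:34181988 and chr17:34216321. B2m lies at chr2:122147686-122153083, Psmb10 at chr8:105935735-105938444 and Nlrc5 at chr8:94434356-94527272. PolyA RNA was sequenced from the whole hippocampus of inbred C57BL/6J mice at postnatal day 15. LL pups had LPS (lipopolysaccharide, from the outer wall of bacteria, which sets off innate immunity) at 5 mg/kg under the skin on day 3 and again at 5 mg/kg into the abdomen on day 14. SL pups had saline on day 3 and LPS on day 14, LS pups had LPS on day 3 and saline on day 14, and SS pups had saline on both days. Tissue was taken 24 h after the injection of day 14, each group held 3 animals, and no genetic alteration is named for any group.

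MHC class I molecules show fragments of a cell's own proteins at its surface, where CD8 T cells and some natural killer receptors read them. The proteasome cuts proteins into peptides, the Tap1 and Tap2 pump carries these into the endoplasmic reticulum, and tapasin (the product of Tapbp) holds the pump to an empty heavy chain paired with beta-2 microglobulin. Interferons replace the constitutive catalytic proteasome subunits with the immunoproteasome forms and raise the other genes of the pathway, in part through IRF1 and NLRC5, while NF-kB acts on the heavy chain and B2m promoters. In the brain, class I transcripts are found in microglia, endothelium and some neurons, and class I proteins are known for roles in synapse development as well as in immunity.

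Promoter stretches of the classical heavy chains, of B2m and of Psmb8 are given because matches to inflammatory response elements were found in them. They were thus picked for these matches, and a link to the levels was not tested. RefSeq windows (250 bases before to 50 after the start, GRCm38.p6) were listed for 8 of the 10 genes, and the first listed window was used. Tap2 and Nlrc5 had no entry. Capitals mark matches on either strand to the kappa B consensus, the interferon-stimulated response element (core GAANNGAAA, or a full form with another A in its first part), the gamma-activated site TTCNNNGAA, the X2 box core TGACG and the Y box CCAAT.
H2-K1: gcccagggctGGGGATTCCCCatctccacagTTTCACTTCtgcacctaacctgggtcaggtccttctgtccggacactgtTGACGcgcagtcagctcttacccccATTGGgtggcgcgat
H2-D1: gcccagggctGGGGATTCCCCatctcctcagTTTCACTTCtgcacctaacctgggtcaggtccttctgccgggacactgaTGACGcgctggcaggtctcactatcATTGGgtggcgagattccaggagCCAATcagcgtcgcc
B2m: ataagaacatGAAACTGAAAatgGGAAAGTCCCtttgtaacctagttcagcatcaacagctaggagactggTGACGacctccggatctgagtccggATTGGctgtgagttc
Psmb8: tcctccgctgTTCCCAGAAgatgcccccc

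The H2-K1 stretch is chr17:34000349-34000468 (minus strand), the H2-D1 stretch chr17:35262913-35263055 (plus strand), the B2m stretch chr2:122147538-122147648 (plus strand) and the Psmb8 stretch chr17:34198088-34198116 (plus strand). In the deposited table H2-D1 starts at chr17:35262730 and Psmb8 at chr17:34197721. The stretches of these genes therefore lie inside the gene spans of that table, whose starts differ from the RefSeq starts used here. Over their shared 120 bases, the H2-K1 and H2-D1 stretches were identical at 108 positions (90.0%) without gaps. In these heavy chains the kappa B match comes first, followed by the response element core on the opposite strand, the X2 box core and the Y box, and in B2m the full form of the response element precedes the kappa B match. Within H2-K1 and within H2-D1, kappa B matches on both strands overlap at a shift of 1 base, and both strands also hold the gamma-activated site of Psmb8. Of 27025 promoters, 4.35% held a kappa B match, 7.56% the response element core, 3.49% its full form, 8.47% the gamma-activated site, 21.0% the X2 box core and 37.9% the Y box. Among the 8 member promoters the counts were 3, 2, 1, 1, 5 and 6 in the same order. These matches describe letters in a window, and no binding was measured.

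**Figure D1:**
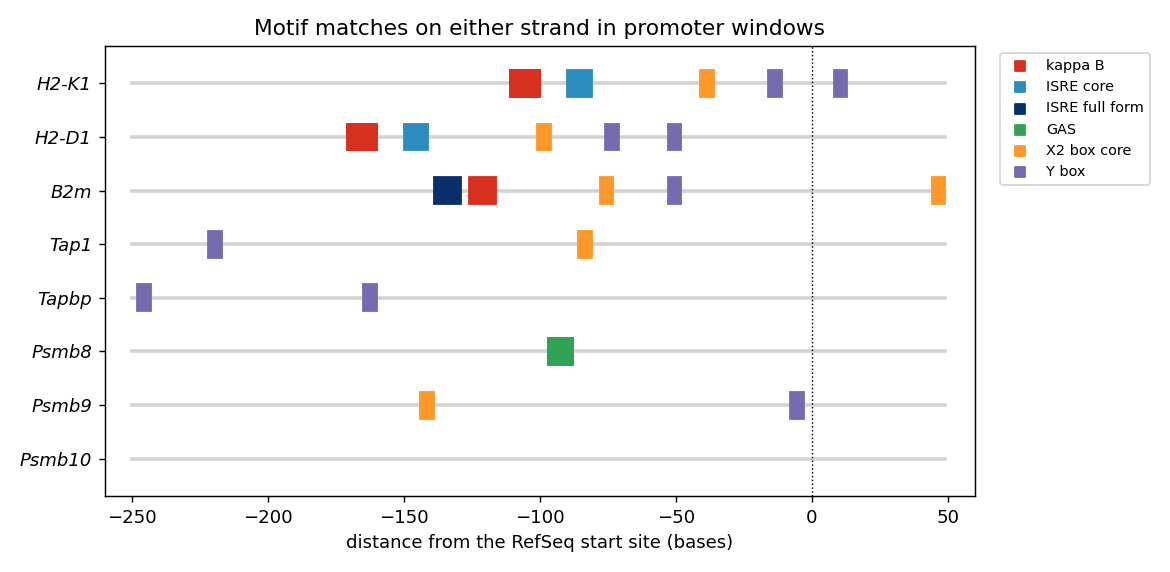
Motif matches in the promoter windows of the 8 members with a RefSeq entry, plotted by distance in bases from the start site (0), with each match drawn to scale on either strand. H2-K1, H2-D1 and B2m each hold a kappa B match with a response element match beside it, and the Psmb10 window holds none of the 6 motifs.

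The members differed widely in level. FPKM, which divides fragments by gene length and library size, puts genes on a common scale by length. In SS hippocampi B2m was at 56 ± 4.38 FPKM (SD, n = 3), Psmb10 at 13.1 ± 0.384, H2-D1 at 10.4 ± 1.13, H2-K1 at 7.26 ± 0.596 and Tapbp at 6.48 ± 0.346. Tap2 (1.23 ± 0.0944), Tap1 (0.649 ± 0.0856), Psmb8 (0.524 ± 0.15), Psmb9 (0.287 ± 0.0872) and Nlrc5 (0.0695 ± 0.0128) were low. The light chain thus stood far above both heavy chains, and the transporter, both other immunoproteasome subunits and the activator stood near the lower end. Libraries held 16979666 to 24105022 fragments in the listed genes. Behind the SS values lay 776 to 906 fragments per library for B2m, 296 to 369 for H2-K1, 14 to 24 for Psmb9 and 9 to 12 for Nlrc5, so the low members carry more counting error. Libraries differed in choroid plexus transcripts, which were lowest in LS replicates 2 and 3. The 9 markers summed to 1120, 51.3 and 18.1 FPKM in LS replicates 1, 2 and 3, and to 620 to 872 FPKM in SL. In SS they summed to 2150 to 2530 FPKM and in LL to 2230 to 3170 FPKM. All 9 lay lower in SL than in SS and lower in LS than in SS, with no overlap, and their part in the member differences was not tested. B2m in LS replicates 1, 2 and 3 was at 67.9, 64.0 and 68.1 FPKM and H2-K1 at 9.65, 10.1 and 9.45 FPKM. The order of the group means was SL, LL, LS and SS from high to low for 9 of 10 members, and SL, LL, SS and LS for Tapbp.

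**Figure D2:**
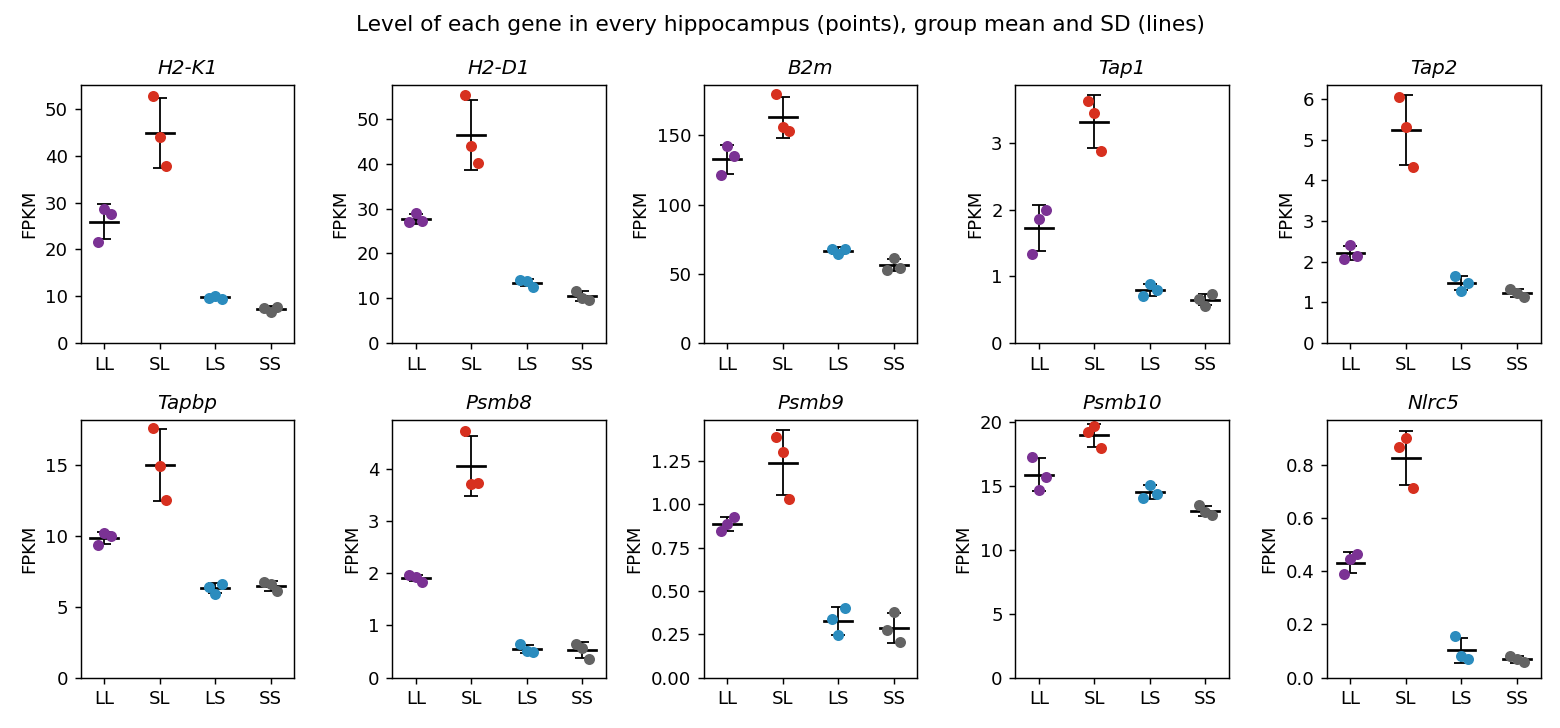
FPKM of each member in every hippocampus (points), with the group mean and SD (lines), for LL, SL, LS and SS pups (n = 3 each); every axis starts at 0. The SL points lie above the LL points in all 10 panels, and the LS and SS points lie close together.

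Limma was run on log2(FPKM + 0.5) for genes that reached 0.5 FPKM in 3 or more libraries, and a gene was called at a Benjamini-Hochberg adjusted p under 0.05 over all 17687 tested genes. Fold changes on that scale understate the change of low genes, so ratios of mean FPKM are given beside them. All 10 members passed the filter, but Nlrc5 reached 0.5 FPKM in SL libraries alone and Psmb9 in SL and LL libraries alone. A high level in those groups was thus a condition of their being tested. With no filter, the 10 members were called in SL against SS as well.

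SL against SS gives the response to LPS on day 14 in pups that had not met it before. All 10 members were called higher in SL, against a background of 7.06% of tested genes called higher and 3.77% called lower. Their median log2 fold change was 1.63, against -0.00363 over all tested genes, and in all 10 the groups did not overlap, as in 13.8% of tested genes with SL higher. H2-K1 was at 52.9, 44.1 and 37.8 FPKM in SL, against 7.54, 6.57 and 7.66 FPKM in SS. The lowest SL library was far above the highest SS library. The log2 fold change was 2.54 (SE 0.12, limma adjusted p = 1.41e-07) and the ratio of means 6.19. H2-D1, the other classical heavy chain, was at 55.4, 44.0 and 40.2 FPKM in SL, against 11.7, 10 and 9.57 FPKM in SS, with a log2 fold change of 2.10 (SE 0.11). B2m was at 180, 156 and 153 FPKM in SL, against 53, 61 and 54 FPKM in SS, with a log2 fold change of 1.53 (SE 0.08) and a ratio of means of 2.91. The light chain, which every class I heavy chain needs for folding, thus had the smaller ratio but the higher level. In whole tissue, more cells of a type and more RNA per cell cannot be told apart. Neutrophil markers also differed, with a sum of 114 to 234 FPKM in SL and 0.893 to 1.47 FPKM in SS, and their part in these differences was not tested.

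The genes of peptide transport were higher in SL as well. Tap1 was at 3.63, 3.46 and 2.88 FPKM in SL, against 0.654, 0.561 and 0.732 FPKM in SS (log2 fold change 1.73, SE 0.13, ratio of means 5.12). Tap2, which forms the pump with Tap1, was at 6.06, 5.32 and 4.34 FPKM in SL, against 1.32, 1.23 and 1.13 FPKM in SS (1.72, SE 0.12, ratio of means 4.28). Tapbp was at 17.6, 14.9 and 12.5 FPKM in SL, against 6.75, 6.61 and 6.09 FPKM in SS (1.14, SE 0.10, ratio of means 2.31). None of these genes overlapped between the groups. Tap1 and Psmb9 are divergent neighbours that share 212 exon bases on opposite strands. Exons of Tapbp share 149 bases with Zbtb22 on the same strand and 904 with the antisense gene Gm19412. On opposite strands, Tap2 shares 14.1% of its exon bases with Gm15821 and 4.36% with Gm20496, and Psmb8 shares 14.7% with Gm20496. The strand setting of the counting is not stated, so fragments in these stretches are uncertain.

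Among the immunoproteasome subunits, Psmb8 (LMP7, which takes the place of Psmb5) was at 4.72, 3.7 and 3.73 FPKM in SL, against 0.644, 0.572 and 0.356 FPKM in SS (log2 fold change 2.15, SE 0.13, ratio of means 7.73). Psmb9 (LMP2, which replaces Psmb6) was at 1.39, 1.3 and 1.03 FPKM in SL, against 0.273, 0.38 and 0.207 FPKM in SS (1.15, SE 0.14, ratio of means 4.33). Psmb10 (MECL-1, which replaces Psmb7) was at 19.2, 19.7 and 18.0 FPKM in SL, against 13.5, 13 and 12.7 FPKM in SS (0.52, SE 0.06, ratio of means 1.45). Psmb10 therefore had the highest level of the immunoproteasome subunits and the smallest ratio of all 10 members, although its groups did not overlap.

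The activator Nlrc5, which binds class I promoters as part of a larger complex, was at 0.866, 0.898 and 0.711 FPKM in SL, against 0.083, 0.0682 and 0.0574 FPKM in SS. Its ratio of means, 11.9, was the highest of the members, while its log2 fold change with the pseudocount was 1.22 (SE 0.14). The SL values rest on 109 to 156 fragments per library and the SS values on 9 to 12. Within SL, replicate 3 was the lowest library for 9 of 10 members and replicate 1 the highest for 8. These calls were kept in every alternative in which the gene was tested, the omission of any of the 12 libraries included.

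The constitutive catalytic subunits gave no such difference. Psmb5, Psmb6 and Psmb7 had log2 fold changes in SL against SS of -0.02 (95% interval -0.18 to 0.13), 0.06 (-0.04 to 0.16) and -0.10 (-0.22 to 0.03). Limma and limma voom called 0 of these 3 in each of the 6 comparisons, and 0 had an unadjusted p under 0.05. The level of Psmb8 was 5.04%, 4.36% and 4.19% of that of Psmb5 in SL, against 0.773%, 0.572% and 0.401% in SS, per length. In LL it was 2.09%, 2.17% and 2.22%, and in LS 0.722%, 0.527% and 0.514%. Psmb9 lay at 3.68%, 3.61% and 2.85% of Psmb6 in SL and at 2.47% to 2.65% in LL, against 0.674% to 1.14% in LS and 0.578% to 1.03% in SS. Both shares thus lay near or below 1.14% in LS and SS and above 2% in LL and SL. Psmb10, by contrast, lay at 71.4% to 77.1% of Psmb7 in SL, at 57.3% to 65.2% in LL, at 49.1% to 56.8% in LS and at 46.7% to 48.7% in SS. SL did not overlap with SS in any of the 3 ratios, nor did LL with LS, and the exact permutation test of 3 against 3 animals gave p = 0.1, the smallest it can give.

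**Figure D3:**
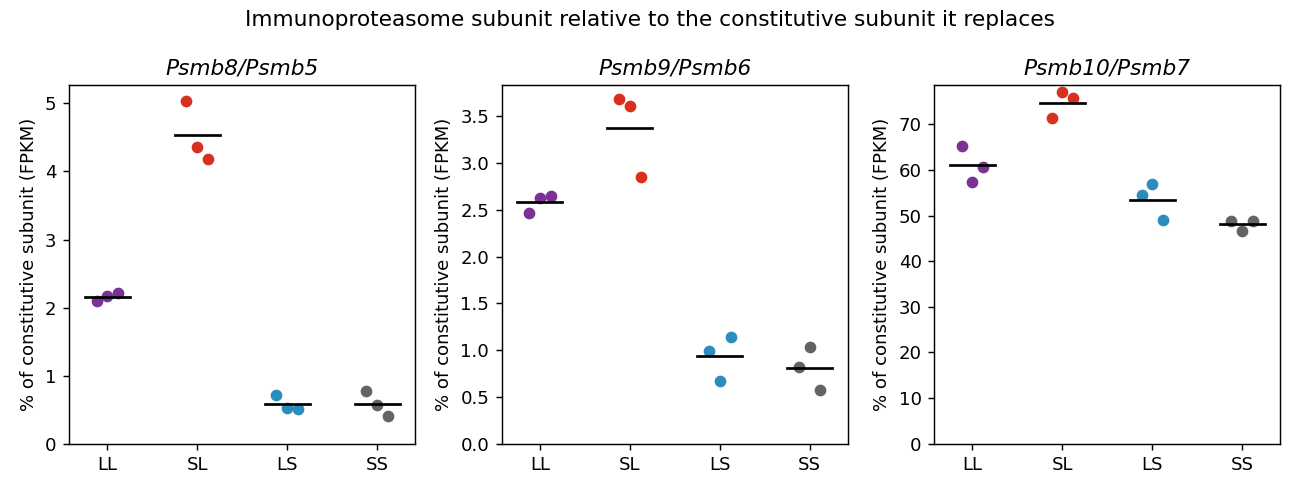
FPKM of each immunoproteasome subunit as a percentage of the constitutive subunit it replaces, in every hippocampus (points, with the group mean as a line) of LL, SL, LS and SS pups; every axis starts at 0. Psmb8 and Psmb9 stay at or below 5.04% of their partners, whereas Psmb10 lies between 46.7% and 77.1% of Psmb7.

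LS against SS asks whether the injection of day 3, by itself, still showed on day 15. Limma called 0 of 10 members, as did limma voom, while 4 had an unadjusted p under 0.05. Over all tested genes limma called 0.147% higher and 0.164% lower, limma voom 0.317% and 0.639%, and at an unadjusted p under 0.05 6.49% were higher and 6.12% lower. The 4 members were H2-K1, H2-D1, B2m and Psmb10, and in these LS and SS did not overlap, as in 9.36% of tested genes with LS higher. H2-K1 was at 9.65, 10.1 and 9.45 FPKM in LS, against 7.54, 6.57 and 7.66 FPKM in SS, with a log2 difference of 0.40 (95% interval 0.13 to 0.67, limma adjusted p = 0.207). H2-D1 was at 14, 13.9 and 12.6 FPKM in LS, against 11.7, 10 and 9.57 FPKM in SS (log2 difference 0.36, 0.12 to 0.60). B2m was at 67.9, 64.0 and 68.1 FPKM in LS, against 53, 61 and 54 FPKM in SS (0.25, 0.08 to 0.42). In these 3 genes every LS library lay above every SS library, although none passed the adjusted threshold. The 5 B cell markers summed to 7.25 to 16.8 FPKM in LS, against 3.17 to 4.54 FPKM in SS. In LL they summed to 7.48 to 16.1 FPKM, against 3.15 to 4.09 FPKM in SL. The 7 microglia markers summed to 86.3 to 91.8 FPKM in LS, against 75 to 79.8 FPKM in SS. Limma called 1 of these 7 higher in LS and 0 lower, and 6 had an unadjusted p under 0.05. Without overlap, 5 lay higher in LS and 1 lower. The part of either list in the differences was not tested. For Psmb10 the log2 difference was 0.15 (0.01 to 0.28). For the other members the interval of the log2 fold change included 0, and its upper bounds lay between 0.18 for Tapbp and 0.45 for Tap1.

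LL against LS gives the response to the same injection on day 14 in pups that had met LPS on day 3. Of the 10 members 8 were called higher, against 2.4% of tested genes called higher and 0.26% called lower, with a median log2 fold change of 0.765 against -0.00459 over all genes. In 9 members LL and LS did not overlap, as in 11% of tested genes with LL higher. H2-K1 was at 21.7, 28.6 and 27.5 FPKM in LL, against 9.65, 10.1 and 9.45 FPKM in LS (log2 fold change 1.36, SE 0.12, limma adjusted p = 0.000194). H2-D1 was at 27.0, 29.1 and 27.2 FPKM in LL, against 14, 13.9 and 12.6 FPKM in LS (1.01, SE 0.11). B2m was at 121, 142 and 135 FPKM in LL, against 67.9, 64.0 and 68.1 FPKM in LS (0.98, SE 0.08). Class I heavy and light chains thus had ratios of means between 1.99 and 2.67 in these pups. Psmb8 was at 1.96, 1.92 and 1.84 FPKM in LL, against 0.647, 0.508 and 0.496 FPKM in LS (1.20, SE 0.13, ratio of means 3.46).

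The remaining members responded less evenly in LL. By log2 fold change, Tap1 (0.78, SE 0.13), Tapbp (0.61, SE 0.10), Psmb9 (0.75, SE 0.14) and Nlrc5 (0.63, SE 0.14) were called higher. Tap2 was at 2.07, 2.41 and 2.15 FPKM in LL, against 1.65, 1.29 and 1.48 FPKM in LS, and was not called (0.46, 95% interval 0.21 to 0.71, limma adjusted p = 0.066). Its LL values nevertheless lay above all its LS values, and it was called without SL replicate 1 (limma adjusted p = 0.0421) or SL replicate 3 (0.0359), or with protein-coding genes only (0.0335). Psmb10 was at 17.3, 14.7 and 15.7 FPKM in LL, against 14.1, 15.1 and 14.4 FPKM in LS, with overlapping groups (0.12, -0.01 to 0.26, limma adjusted p = 0.416). With LS replicates 2 and 3 left out together, whose choroid plexus transcripts were low, 2 of the 10 members (H2-K1 and B2m) were called. The log2 fold changes of those that lost their call were then 0.96 for H2-D1, 1.07 for Psmb8, 0.88 for Tap1, 0.73 for Psmb9, 0.58 for Tapbp and 0.51 for Nlrc5. With only LL and LS in the fit 5 were called. The call of Psmb9 ended without LL replicate 2 or 3 or LS replicate 2 (limma adjusted p of 0.061, 0.0712 and 0.0684). That of Nlrc5 ended with any library left out other than SL replicate 1 or LS replicate 1 (0.0507 to 0.152).

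The interaction asks whether the response to LPS on day 14 differed between pups given LPS and pups given saline on day 3. It was negative for all 10 members and called for 7, against 3.19% of tested genes called negative and 2.14% called positive. Tap2 had the most negative value, -1.26 (SE 0.16, limma adjusted p = 0.000935), followed by H2-K1 at -1.18 (SE 0.17), H2-D1 at -1.08 (SE 0.15), Psmb8 at -0.96 (SE 0.18) and Tap1 at -0.95 (SE 0.18). B2m had -0.55 (SE 0.11) and Psmb10 -0.40 (SE 0.09). The interaction also equals LL minus SL less LS minus SS, so the LS against SS differences, none of them called, enter it. For B2m LL minus SL was -0.30 and LS minus SS 0.25, and for Psmb10 -0.25 and 0.15. For Tap2 they were -1.07 and 0.19, and for Psmb8 -0.91 and 0.04. Among the members not called, Tapbp had -0.53 (95% interval -0.84 to -0.21, limma adjusted p = 0.0603), Nlrc5 -0.59 (-1.02 to -0.15) and Psmb9 -0.40 (-0.82 to 0.02). Tapbp was called without SL replicate 3 (limma adjusted p = 0.00665). With protein-coding genes only, 9 members were called, Tapbp (0.0332) and Nlrc5 (0.044) among them. Without LS replicates 2 and 3 together 4 members were called. The call of Psmb10 ended without LL replicate 3, SL replicate 2, LS replicate 2 or SS replicate 3 (limma adjusted p of 0.0515, 0.0538, 0.0549 and 0.0513). With limma voom on whole fragments 5 were called, against 2.67% of tested genes, without Psmb8 (0.0691) and Psmb10 (0.0594).

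**Figure D4:**
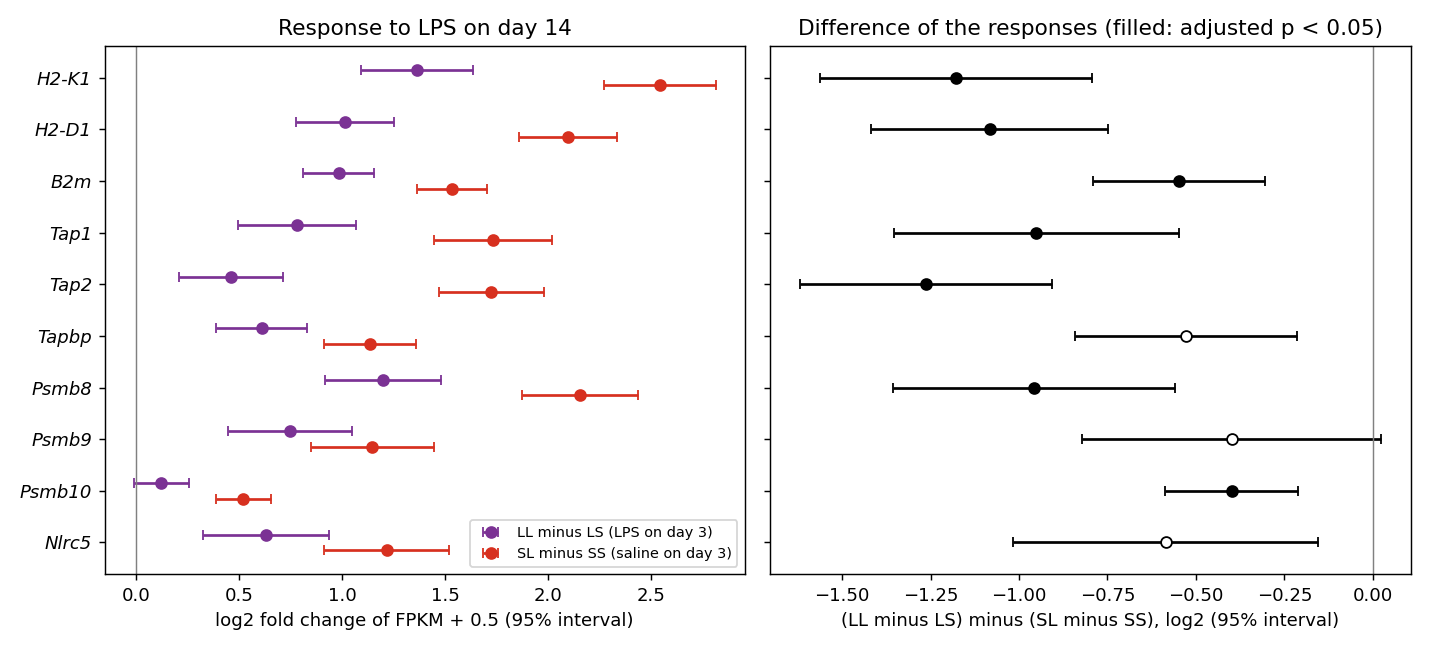
Left, log2 fold change of FPKM + 0.5 with its 95% interval for LL minus LS and SL minus SS. Right, the difference between these responses, with filled points for an adjusted p under 0.05; all 10 estimates lie below 0, from -1.26 for Tap2 to -0.40 for Psmb9.

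On the FPKM scale, with no pseudocount, LL minus LS was a share of SL minus SS that varied among the members. For B2m the difference LL minus LS was 66 FPKM and SL minus SS 107 FPKM, a share of 61.6% (57.4% to 66.8% when any library was left out). The share was 58.5% for Psmb9, 43.6% for Nlrc5, 43.1% for H2-K1, 42% for Tapbp, 39.5% for H2-D1, 38.5% for Psmb8 and 35.3% for Tap1. Psmb10 (23.1%, 11% to 33.4%) and Tap2 (18.4%, 15.9% to 20.6%) had the lowest shares. The ranges of B2m and Tap2 did not overlap, and differences between members were not tested. Tap1 and Tap2 code for partners in the same pump and had shares of 30.4% to 42.5% and 15.9% to 20.6%. These values share their libraries and are given as a description.

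**Figure D5:**
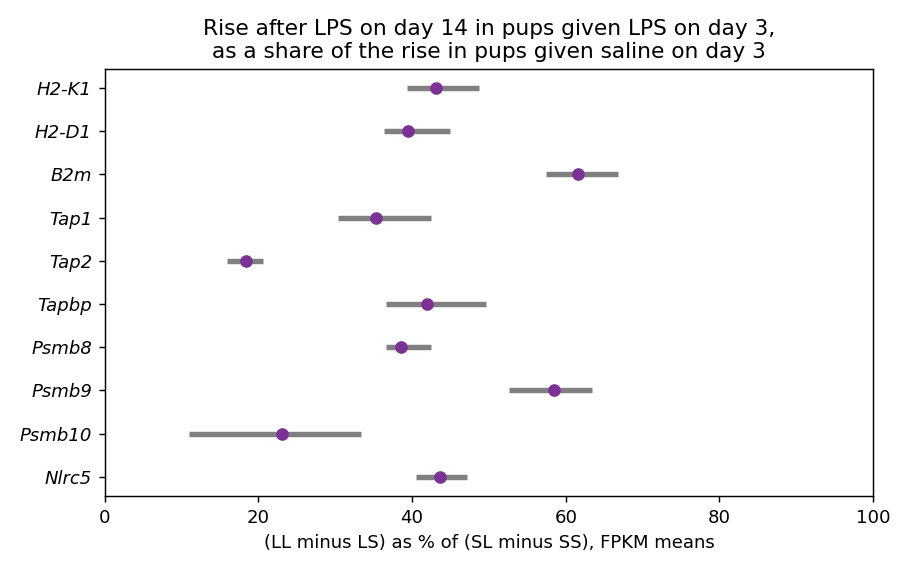
LL minus LS as a percentage of SL minus SS, from mean FPKM, for each member (points), with the range over the 12 values that each lack a library (grey lines). The shares run from 18.4% for Tap2 to 61.6% for B2m.

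LL against SL sets both injections against the injection of day 14 alone. In all 10 members every LL library lay below every SL library, as in 13.9% of tested genes. Of these, 9 were called lower, against 5.46% of tested genes called lower and 3.32% called higher. Tap2 had the most negative log2 fold change, -1.07 (SE 0.12, limma adjusted p = 0.000132), with 2.07, 2.41 and 2.15 FPKM in LL, against 6.06, 5.32 and 4.34 FPKM in SL. Psmb8 had -0.91 (SE 0.13), Tap1 -0.78 (SE 0.13), H2-K1 -0.78 (SE 0.12), H2-D1 -0.72 (SE 0.11) and Tapbp -0.57 (SE 0.10). B2m (-0.30, SE 0.08), Psmb10 (-0.25, SE 0.06) and Nlrc5 (-0.51, SE 0.14) were called with limma adjusted p of 0.0375, 0.0244 and 0.0458. Psmb9 (-0.33, 95% interval -0.62 to -0.03) was not called. The ratio of LL to SL means was thus 0.813 for B2m and 0.422 for Tap2. The call of B2m ended without LL replicate 1 or 3, SL replicate 1 or 2, LS replicate 3 or SS replicate 3 (limma adjusted p 0.0511 to 0.145). That of Psmb10 ended without LL replicate 2 or 3 or SL replicate 1 or 2 (0.06 to 0.0972), and that of Nlrc5 with any library left out but LS replicate 1 (0.0569 to 0.157).

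LL against SS compares both injections with none. All 10 members were called higher in LL, against 2.13% of tested genes called higher and 0.283% called lower, and in all 10 the groups did not overlap, as in 10.9% of tested genes. H2-K1 had a ratio of means of 3.57 (log2 fold change 1.76, SE 0.12, limma adjusted p = 1.71e-05), Psmb8 3.64 (1.24, SE 0.13), H2-D1 2.66 (1.37, SE 0.11) and B2m 2.37 (1.24, SE 0.08). At the lower end were Psmb10 at 1.22 (0.27, SE 0.06) and Tapbp at 1.52 (0.57, SE 0.10). Both injections thus left class I transcripts above the SS level, at values between those of SS and SL. Without SS replicate 3, 6 members were called. The calls of Tap2 and Tapbp ended without LL replicate 2 (limma adjusted p of 0.0583 and 0.0559) or SS replicate 3 (0.0507 and 0.0548). That of Nlrc5 ended without any LL or SS library (0.0509 to 0.0855), and that of Psmb10 with any library left out but LL replicate 2 and SL replicate 3 (0.0518 to 0.16).

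Other genes of the pathway were taken from lists of genes with known roles, chosen, like the members, with earlier results of these data known. Over all tested genes 7.06% were called higher and 3.77% lower in SL against SS, and 2.4% and 0.26% in LL against LS. Of 16 other class I and class I-like heavy chain genes 10 were tested, and in SL against SS 5 were higher and 1 lower. Of the 5, H2-Q6 and H2-Q7 were tested only because they reached 0.5 FPKM in SL and LL libraries. H2-Q4, a Qa-region heavy chain, was at 10.7 ± 2.58 FPKM in SL and 0.698 ± 0.113 FPKM in SS (SD, n = 3 each), and its log2 difference was 3.21 (SE 0.19). H2-Q6 had 2.15 (SE 0.17) and H2-T23, which encodes the Qa-1 molecule, 1.75 (SE 0.13). In LL against LS 6 of the 10 were higher, with H2-Q4 at 1.66 (SE 0.19), H2-Q6 at 1.52 (SE 0.17) and H2-T23 at 1.18 (SE 0.13), and the interaction of H2-Q4 was -1.55 (SE 0.26). Limma voom called 0 of these genes lower in the interaction. H2-Q genes have near-identical copies, so their values are uncertain. Of the transcripts of H2-D1, 4.09% of windows of 100 bases were found in other genes, and of those of H2-K1 0%.

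Of 8 loading and trimming genes 2 were higher in SL than SS, against 7.06% of tested genes. They were the tapasin-related Tapbpl (log2 fold change 0.57, SE 0.09) and the trimming peptidase Erap1 (0.54, SE 0.12). In LL against LS 2 were called higher, against 2.4% of tested genes. They were the chaperone Hspa5 (0.47, SE 0.09) and the disulfide isomerase Pdia3 (0.39, SE 0.06), which joins the loading complex. Both also lay lower in LS than in SS with no overlap (Hspa5 58.1 against 70.7 FPKM, Pdia3 69.1 against 76.4 FPKM). In SL both lay above SS with no overlap. Limma called neither gene in LS against SS, in SL against SS or in the interaction. Of 10 proteasome activator and assembly genes 1, the PA28 alpha subunit Psme1, was higher in SL than SS (0.48, SE 0.10), close to the share of 7.06% over all tested genes. Its partner Psme2 was at 6.6 ± 1.64 FPKM in SL and 3.84 ± 1.12 FPKM in SS (SD, n = 3 each) and was not called (0.72, 95% interval 0.23 to 1.20). Of 11 other core subunits limma and limma voom called 0 in SL against SS, with 1 at an unadjusted p under 0.05. In LL against SL both called 1 lower, Psma6 (-0.29, SE 0.07), against 5.46% of tested genes called lower by limma.

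Among 13 transcription factors of class I genes 7 were higher in SL than SS, against 7.06% of tested genes called higher. Irf1, an interferon-induced factor, was at 4.84, 4.21 and 3.51 FPKM in SL, against 1.8, 1.53 and 1.18 FPKM in SS (log2 fold change 1.23, SE 0.13). Irf9 (1.09, SE 0.07), which carries interferon signals to the nucleus, was higher too, and it was also higher in LL than LS (0.54, SE 0.07). Irf1 was at 2.28, 2.24 and 2.04 FPKM in LL, against 4.84, 4.21 and 3.51 FPKM in SL, and its interaction was -0.95 (SE 0.18). The subunits of the RFX complex, with which NLRC5 binds, gave log2 fold changes in SL against SS of -0.09 for Rfx5, 0.02 for Rfxap and 0.02 for Rfxank, none of them called. Of 11 genes for interferons, their receptors and the kinases and inhibitor that act with these, 7 were tested and 2 were higher in SL than SS, the receptor gene Ifngr1 (0.61, SE 0.09) and the kinase gene Jak2 (0.45, SE 0.08). Ifna4 was listed at 0 in all 12 libraries, Ifnb1 was above 0 in 1 SL library (0.0692 FPKM), and Ifng was above 0 in 1 LL library (0.0694 FPKM) and 1 LS library (0.0419 FPKM). Of 7 genes for class I receptors and related receptors 2 were tested, Pirb only through SL and LL libraries and Lilrb4a only through SL libraries. Their higher level in SL was thus a condition of the test. Pirb, an inhibitory receptor for class I on myeloid cells and neurons, was at 1.62, 1.48 and 1.19 FPKM in SL, against 0.105, 0.0389 and 0.0242 FPKM in SS (1.79, SE 0.15), and at 0.738, 0.523 and 0.653 FPKM in LL, against 0.033, 0.0556 and 0.146 FPKM in LS (0.98, SE 0.15). Lilrb4a, a related receptor, had 1.99 (SE 0.13) in SL against SS.

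Markers of the tissue and of other cells were summed in each library. The 7 genes of hippocampal neurons summed to 213 to 273 FPKM over all 12 libraries, and limma called 0 of them in each of the 6 comparisons, with 2 at an unadjusted p under 0.05 and 1 called by limma voom in LL against SL. Within LL, Wfs1, Fibcd1, Spink8 and Neurod6 were lowest in replicate 1, whereas Prox1, Zbtb20 and Neurod1 were highest in it. Fibcd1 was at 17, 33.6 and 41.9 FPKM in LL replicates 1, 2 and 3. LL replicate 1 was the lowest LL library for 8 of 10 members, and a link was not tested. The 7 neutrophil markers summed to 114 to 234 FPKM in SL, 3.51 to 5.56 in LL, 1.32 to 1.78 in LS and 0.893 to 1.47 in SS. Ly6g was listed at 0 in all LL and LS libraries and in 2 of 3 SS libraries, and lay at 0.0551 to 0.1 FPKM in SL. S100a8 was called higher in LL than in LS (log2 fold change 1.23) and than in SS (1.52). Replicate 1 of SL, the highest for most members, had the highest SL sum of neutrophil markers (234 FPKM) and of monocyte markers (13 FPKM). It had the lowest SL sum of microglia markers (72 FPKM), and a link of these sums to the members was not tested. The 6 monocyte markers summed to 7.98 to 13 FPKM in SL, 4.37 to 4.67 in LL, 3.19 to 3.88 in LS and 3.58 to 3.92 in SS. The 7 microglia markers summed to 117 to 119 FPKM in LL and 72 to 87.3 in SL, against 86.3 to 91.8 in LS and 75 to 79.8 in SS. These genes did not move alike: in SL against SS 4 were higher, among them Itgam (log2 fold change 2.02) and Aif1 (1.64), and 1 was lower, P2ry12 (-2.87). In LL against LS 5 were higher and 1, P2ry12 (-0.84), was lower. Over all tested genes 7.06% were called higher and 3.77% lower in SL against SS, and 2.4% and 0.26% in LL against LS. The 6 endothelial markers summed to 66.5 to 77.7 FPKM in LL, 51.7 to 67.1 in SL, 63 to 66.2 in LS and 54.1 to 59.5 in SS. The 5 astrocyte markers summed to 479 to 481 FPKM in SL, 410 to 457 in LL, 429 to 445 in LS and 424 to 446 in SS. In SL against SS 2 of these were called higher, Aqp4 (log2 fold change 0.64) and Slc1a3 (0.27), and 1 lower, Gja1 (-0.46). The interaction of Aqp4 was -0.84 (SE 0.17). The part of any of these lists in the class I differences was not tested. The 9 markers of T and natural killer cells summed to at most 1.23 FPKM in any library. Cd8b1, a chain of the CD8 molecule of T cells that read class I, was listed at 0 in all 12. Cd8a was at 0.0221 FPKM in LL replicate 1, 0.0457 in SL replicate 3 and 0.0135 in LS replicate 1, and at 0 elsewhere. Cd3e, Cd3d and Cd3g were each above 0 in some libraries, at no more than 0.0611 FPKM. Gzma, of the same list, lay at 0.12 to 0.168 FPKM in LL and 0.141 to 0.567 FPKM in SL, and at 0 in all LS and SS libraries.

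The members followed a common course over the 12 libraries. Each member's Pearson correlation with the mean standardized log2 level of the other 9 lay between 0.915 for Psmb10 and 0.993 for H2-D1 and Nlrc5. Of the tested genes outside the set, the 5 with the highest correlation with the mean of the members were the complement gene C4b (0.994), the lipase gene Aoah (0.994), which inactivates LPS, Arhgdib (0.993), the antiviral Zc3hav1 (0.992) and the lysozyme gene Lyz2 (0.991). Mean C4b levels were 8.7 FPKM in LL, 23.8 in SL, 3.13 in LS and 2.22 in SS. Mean Aoah levels were 0.782 FPKM in LL, 1.63 in SL, 0.203 in LS and 0.0393 in SS. Aoah thus could not have passed the filter of 0.5 FPKM without its LL or SL libraries. These correlations describe 12 libraries of the same 4 groups, and differences between the groups enter all of them.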

How the data were processed

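The authors deposited a table of FPKM values for 12 libraries of polyA RNA. HISAT2 2.0.5 and featureCounts 1.5.0-p3 on mm10 are named in the submitters' processing notes. The total behind the FPKM, the strand setting and the handling of shared fragments are not stated in the labels. With the deposited gene lengths, 100% of 309337 values above 0 came out within 0.01 of a whole number of fragments. Limma 3.58.1 (R 4.3.3, empirical Bayes with a mean trend, 4 group means, 8 residual degrees of freedom) was run on log2(FPKM + 0.5) for genes that reached 0.5 FPKM in 3 or more libraries. Two-sided p-values were adjusted by Benjamini-Hochberg over all tested genes, and the procedure was checked on simulated data. The ratios between subunits were compared by an exact permutation test, whose smallest p with 3 animals a group is 0.1. Labels give 3 animals per group, so the spread is between animals. Replicate pairs differed by more than sampling noise (chi-square per gene 3.78 to 12.5). The members and lists were chosen with earlier results of these data known. Named genes were all members, up to 3 called genes per other list and the 5 genes most like the members. Genes named outside this rule, for a count of few or as partners of a member, were chosen after their values were seen. Alternatives were other pseudocounts (0.1, 1), a filter of 2 FPKM or none, quantile normalization, median centring, a block for the replicate number, a fit of the compared groups alone, limma voom on whole fragments, protein-coding genes only, each library left out, and LS replicates 2 and 3 left out together.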

Additional observations from a re-analysis of the deposited data

Results flagged for a closer look

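For 7 members the response to LPS on day 14 differed between pups given LPS and pups given saline on day 3, by the interaction term of the limma fit. The interaction, on the log2 scale, was -1.18 for H2-K1, -1.08 for H2-D1, -0.55 for B2m, -0.95 for Tap1, -1.26 for Tap2, -0.96 for Psmb8 and -0.40 for Psmb10. All LL libraries were below all SL libraries in each of these genes. Groups of 3 animals are too small for a test of single outlying libraries.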

How the results depend on the processing

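In SL against SS all tested members were called in every setting (8 of 8 with the filter of 2 FPKM, which removes Psmb9 and Nlrc5), and in LS against SS limma and limma voom called 0 in every setting. With each library left out the count was 6 to 9 in LL against LS, 6 to 9 in LL against SL, 6 to 10 in LL against SS and 6 to 8 in the interaction, and with protein-coding genes only it was 9 in the interaction. With LS replicates 2 and 3 left out together it was 2 in LL against LS, where the lone LS library is assumed to vary like the other groups, and 4 in the interaction, and with only the 2 groups compared it was 5 in LL against LS. Fewer samples enter these fits. Of 1358 values of single members in other settings, 97 lost a call, 6 gained one and 5 changed sign. The sign changes all lay in LS against SS, where none was called: Nlrc5 under quantile normalization (-0.0333), and, over the values that each lack a library, Psmb8 (-0.0788 to 0.13), Tapbp (-0.0811 to 0.00296) and Psmb9 (-0.000301 to 0.157). The cause was not tested. A pseudocount of 0.5 lowered the log2 ratio of Psmb8 to Psmb5 in SL against SS to 2.18, against 3.01 without it. Same-numbered libraries showed no visible pairing (correlations -0.0696 to 0.0959, against -0.141 to 0.105 for different numbers). A weak pairing could go unseen with 3 animals per group. With the replicate block the member counts were 10, 0, 7, 7, 9 and 7 in the order SL against SS, LS against SS, LL against LS, LL against SL, LL against SS and interaction. Over all genes, calls ranged from 0 to 205 in LS against SS (55 as reported), 62 to 630 in LL against LS (470), 1004 to 1987 in LL against SL (1554), 275 to 539 in LL against SS (426) and 421 to 1094 in the interaction (942). Limma voom called 4 loading genes in LL against LS, against 2 as reported, and 2 activator or assembly genes in SL against SS, against 1, and 0 other heavy chains lower in the interaction, against 1. Depth limits Nlrc5 and Psmb9 most, with 9 to 27 fragments per SS or LS library for Nlrc5 and 14 to 27 for Psmb9.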

Other observations

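Class I-like heavy chain genes did not all move with the classical ones. Fcgrt, the neonatal Fc receptor that also pairs with B2m, was at 5.45, 5.82 and 6.62 FPKM in SL, against 9.53, 10.4 and 9.79 FPKM in SS, with no overlap and a log2 difference of -0.69 (limma adjusted p = 3.67e-05, SE 0.07). In LL it was at 11.5, 10.3 and 10.6 FPKM, against 9.1, 8.84 and 8.6 FPKM in LS, and its interaction was 0.96 (SE 0.10). Mr1, which presents vitamin metabolites to T cells, was at 1.47, 1.67 and 1.45 FPKM in LL, against 0.962, 0.65 and 0.871 FPKM in SL (0.62, SE 0.13). Its interaction was also positive, 0.75 (SE 0.18), whereas all 10 members had negative estimates.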
